A study of Sus scrofa with 9 samples.

Results

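Collagen chain genes were followed in transplanted pig kidneys on post-operative day 3. A gene was counted as a member when the array's annotation gave a probe set 1 gene symbol made of COL, a type number, A and a chain number. Of 12362 genes named in this way, 30 were members, measured by 34 of the array's 19124 probe sets. A gene with several probe sets was represented by the one with the highest mean over all arrays. By the assemblies that their proteins form, 10 members were fibrillar collagens, 5 were type IV collagens of basement membranes and 15 were other collagens. COL4A5 was included because its probe set carried this symbol alone, entered under 2 gene IDs. COL4A4, COL6A1, COL6A2 and COL18A1 were not analysed here.

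Collagens are the main structural proteins of the matrix between and beneath cells. Their chains wind around each other into a helix of repeated Gly-X-Y triplets, after proline and lysine residues have been hydroxylated in the endoplasmic reticulum. Fibrillar chains such as those of types I, III and V form the fibrils of the interstitium, which thicken in kidney fibrosis. Type IV chains form the sheet of the tubular and glomerular basement membranes, and other families coat fibrils, build fine filaments or cross the cell membrane.

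The kidneys came from male Yorkshire pigs of 30 kg, 1 biopsy and 1 Affymetrix array per animal, with 3 animals in each of 3 groups. In all 9 animals the right kidney underwent 30 min of warm ischemia, was flushed and was put back into the same animal, and the left kidney was removed in that operation. No Storage kidneys were re-implanted directly, SCS kidneys first lay for 8 h in static cold storage, and NEVKP kidneys first had 8 h of normothermic ex vivo kidney perfusion. Ischemia, surgery and the loss of the other kidney were thus shared by the control group, and no kidney without transplantation was part of the design.

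The values are log2 intensities, so a difference of 1 is a doubling of signal. Array medians ran from 5.705 to 5.738 in No Storage, 5.744 to 5.797 in SCS and 5.762 to 5.786 in NEVKP. Those of all stored kidneys thus lay above those of No Storage. Arrays correlated at 0.974 to 0.991 across probe sets. Of the kidney markers listed, 8 of 11 proximal tubule genes and 7 of 11 podocyte genes had a named probe set, and 0 of them were dim, meaning in the lowest 25% of all probe sets by mean. Among the collagens, COL9A1, COL11A1 and COL19A1 were dim, and 27 of 30 were not. In a piece of tissue, a change in the number of cells of a type and a change in RNA per cell cannot be told apart. P values come from limma, adjusted by the Benjamini-Hochberg method over all 19124 probe sets, with a threshold of 0.05. With 3 arrays against 3, an exact two-sided permutation test of a single gene cannot give a p below 0.1.

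The first comparison asks how day 3 transcripts of kidneys kept cold differed from those of kidneys that were not stored. The type I, III and V chains COL1A1, COL1A2, COL3A1, COL5A1 and COL5A2 lay higher in SCS, as did the type IV chains COL4A1 and COL4A2 and the fibril coat and filament chains COL14A1 and COL6A3. COL1A1 had the largest difference, 2.16-fold. Whereas 0 of 30 collagens passed the adjusted threshold in limma (0.162% of all probe sets did), 12 lay higher and 1 lower at an unadjusted p under 0.05. Over all 12362 genes, 7.79% were higher and 9.05% lower by the same rule. Among the probe sets used, the smallest adjusted p of a collagen was 0.0592 in limma, for COL1A1.

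COL1A1 encodes the more abundant chain of type I collagen, the main fibril of scar tissue (NCBI Gene ID 397571). Its log2 values were 10.60, 10.58 and 10.86 in No Storage, 11.71, 12.25 and 11.42 in SCS, and 11.39, 11.58 and 11.71 in NEVKP. All 6 stored kidneys lay above all 3 that were not stored, and SCS replicate 2 was the highest. The SCS difference was 1.11 (SE 0.20, limma adjusted p = 0.0592) and the NEVKP difference 0.88 (SE 0.20, limma adjusted p = 0.343). A second probe set of COL1A1 gave 1.03 (SE 0.18, limma adjusted p = 0.0529) for SCS and 0.68 (SE 0.18) for NEVKP. The gene that encodes its partner chain, COL1A2 (NCBI Gene ID 100626716), had log2 values of 9.97, 9.86 and 10.14 in No Storage, 10.85, 11.13 and 10.62 in SCS, and 10.36, 10.86 and 10.62 in NEVKP. Its 3 groups had the same layout, with both stored groups above No Storage and overlapping each other. The differences of COL1A2 were 0.87 (SE 0.17, limma adjusted p = 0.0646) for SCS and 0.62 (SE 0.17, limma adjusted p = 0.395) for NEVKP.

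COL3A1 encodes the chain of type III collagen, which forms thin fibrils together with type I (NCBI Gene ID 100152001). Its log2 values were 10.14, 9.87 and 10.23 in No Storage, 10.92, 11.10 and 10.42 in SCS, and 10.33, 10.89 and 10.84 in NEVKP. The lowest SCS and NEVKP kidneys lay just above the highest No Storage kidney. The difference was 0.74 for SCS (SE 0.21, limma adjusted p = 0.141) and 0.61 for NEVKP (SE 0.21, limma adjusted p = 0.456). Type V collagen is laid down inside type I fibrils and limits their width. Its gene COL5A2 (NCBI Gene ID 397532), the next gene to COL3A1 in the RefSeq gene order of the pig, had 6.91, 6.92 and 6.88 in No Storage, 7.63, 7.91 and 7.31 in SCS, and 7.36, 7.36 and 7.35 in NEVKP on the log2 scale. The No Storage and NEVKP values were each tightly grouped, with SDs of 0.02 and 0.01 (n = 3), against 0.30 in SCS. COL5A2 lay higher by 0.71 in SCS (SE 0.15, limma adjusted p = 0.0748) and by 0.45 in NEVKP (SE 0.15, limma adjusted p = 0.444).

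**Figure D1:**
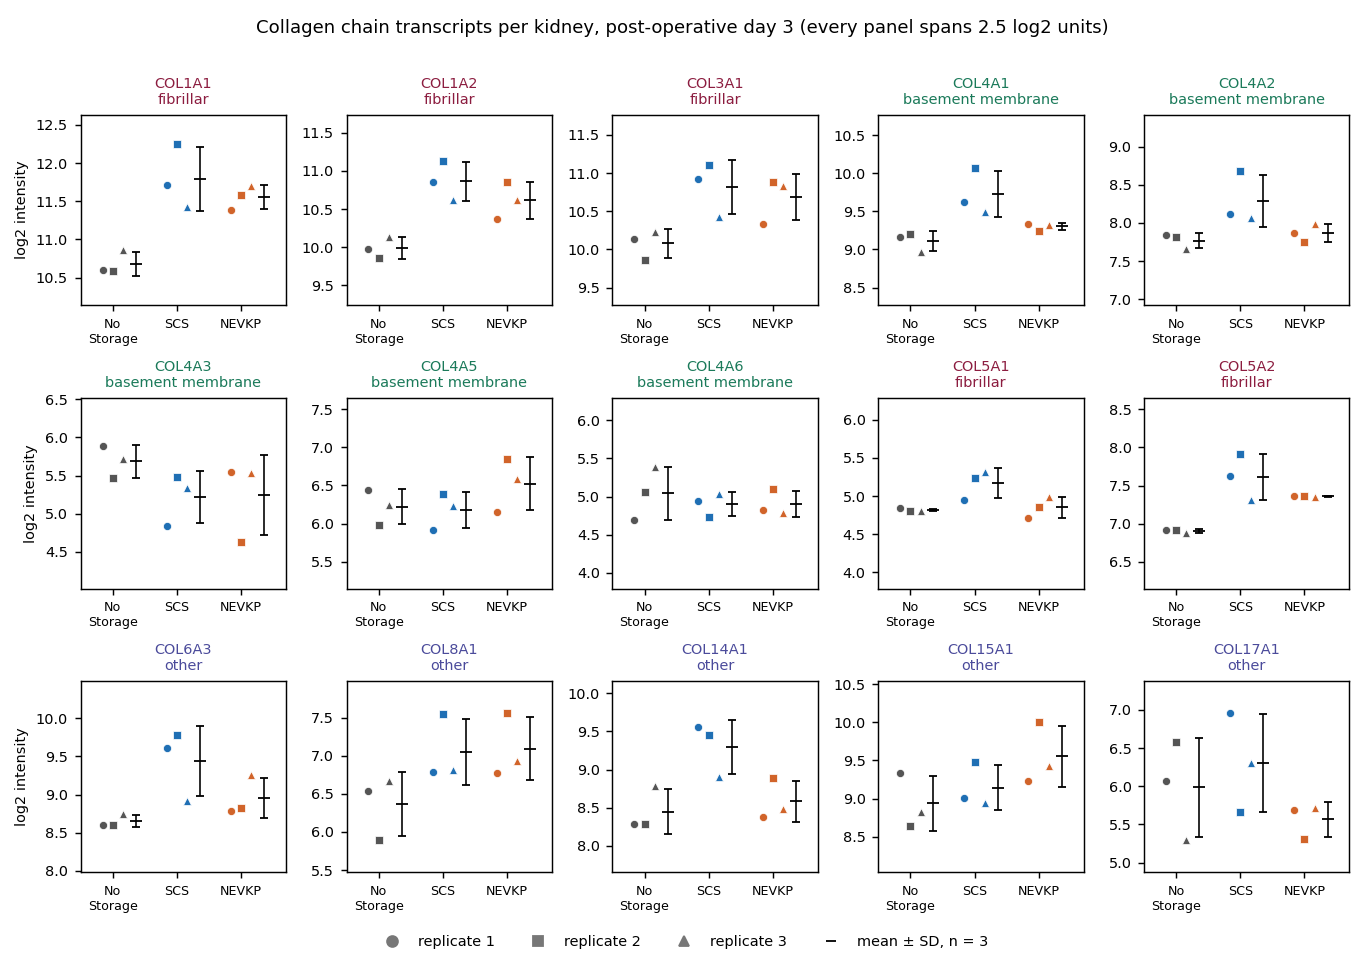
Log2 intensity of 15 collagen genes in each kidney, by group on the horizontal axis, with all panels drawn to the same height in log2 units. Points are single kidneys with a shape for each replicate number, and bars give the mean ± SD (n = 3). For COL1A1, COL1A2, COL3A1 and COL5A2 every SCS and NEVKP kidney lies above every No Storage kidney.

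COL5A1, another type V chain, differed from this layout. Its log2 values were 4.84, 4.81 and 4.81 in No Storage, 4.95, 5.24 and 5.32 in SCS, and 4.71, 4.86 and 4.99 in NEVKP, so that only SCS stood clear of No Storage. The difference was 0.35 for SCS (SE 0.13, limma adjusted p = 0.245) and 0.03 for NEVKP (SE 0.13, limma adjusted p = 0.969). The remaining 5 fibrillar genes are the cartilage collagens COL2A1, COL11A1 and COL11A2 with COL27A1 and COL5A3, which is also a type V chain. COL5A3 was not higher in either stored group. It differed by -0.06 in SCS, with overlap, and in NEVKP all its values lay below those of No Storage. In SCS they differed from No Storage by -0.31 (COL11A2) to 0.10 (COL2A1), and in NEVKP by -0.29 (COL5A3) to 0.01 (COL11A1). None of these 5 had an unadjusted p under 0.05 in limma in any comparison. The 10 fibrillar genes thus held 5 that were higher in SCS at an unadjusted p under 0.05 and 5 that were not, beside 7.79% of all genes higher. In NEVKP 4 of the 10 were higher by this rule, beside 5.16% of all genes.

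Among type IV collagens, COL4A1 and COL4A2 encode the chains found in nearly all basement membranes, and they lie head to head as neighbouring genes. COL4A1 (NCBI Gene ID 100515336) had log2 values of 9.16, 9.21 and 8.96 in No Storage, 9.63, 10.07 and 9.49 in SCS, and 9.34, 9.25 and 9.33 in NEVKP. COL4A2 (NCBI Gene ID 100153454) had 7.84, 7.81 and 7.65 in No Storage, 8.12, 8.69 and 8.07 in SCS, and 7.86, 7.76 and 7.99 in NEVKP. For both genes the 3 SCS kidneys lay above the other 6, and SCS replicate 2 was the highest. COL4A1 differed by 0.62 in SCS (SE 0.16, limma adjusted p = 0.115) and by 0.19 in NEVKP (SE 0.16, limma adjusted p = 0.762). COL4A2 differed by 0.52 (SE 0.17, limma adjusted p = 0.179) and 0.10 (SE 0.17, limma adjusted p = 0.907). Without SCS replicate 2 the SCS difference of COL4A2 was 0.33.

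The chains COL4A3 and COL4A5 join in the mature glomerular basement membrane, which podocytes make, and COL4A6 is found in Bowman's capsule and the collecting duct. COL4A3 (NCBI Gene ID 100621504) had log2 values of 5.89, 5.46 and 5.71 in No Storage, 4.84, 5.49 and 5.34 in SCS, and 5.55, 4.64 and 5.54 in NEVKP. It was lowest in NEVKP replicate 2 and SCS replicate 1, and the groups overlapped. The COL4A3 difference was -0.46 in SCS (SE 0.26, limma adjusted p = 0.438) and -0.45 in NEVKP (SE 0.26, limma adjusted p = 0.647), and these were -0.27 without SCS replicate 1 and -0.14 without NEVKP replicate 2. COL4A5 had 6.44, 5.98 and 6.24 in No Storage, 5.92, 6.39 and 6.23 in SCS, and 6.15, 6.84 and 6.58 in NEVKP. COL4A6, its neighbour in the gene order, had 4.69, 5.06 and 5.39 in No Storage, 4.94, 4.73 and 5.03 in SCS, and 4.82, 5.09 and 4.78 in NEVKP. The groups overlapped for both. COL4A5 differed by -0.04 in SCS and 0.30 in NEVKP, and COL4A6 by -0.15 in each, with limma adjusted p from 0.685 to 0.957. Podocyte markers were measured beside these chains. Of 7 podocyte genes, 0 passed the adjusted threshold in SCS and 1 was lower at an unadjusted p under 0.05 (CLIC5, -0.61, limma adjusted p = 0.163), while NPHS1, which encodes nephrin, differed by -0.32. Of the 7, 5 had a negative and 2 a positive difference, among the latter NES with 0.21. By the same unadjusted rule 9.05% of all genes were lower in SCS. The mean of the podocyte list on single arrays spanned 6.72 to 7.03 in No Storage, 6.45 to 6.93 in SCS and 6.56 to 6.98 in NEVKP. Its part in the COL4A3 values was not tested.

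Among the other collagens, the clearest SCS difference was in COL14A1, which encodes a collagen on the surface of type I fibrils (NCBI Gene ID 100158059). Its log2 values were 8.28, 8.28 and 8.79 in No Storage, 9.56, 9.45 and 8.90 in SCS, and 8.38, 8.89 and 8.48 in NEVKP. All SCS kidneys lay above all others, by a narrow margin for SCS replicate 3. The COL14A1 difference was 0.85 in SCS (SE 0.22, limma adjusted p = 0.115) and 0.13 in NEVKP (SE 0.22, limma adjusted p = 0.904). COL6A3 encodes a chain of the beaded filaments that surround cells (NCBI Gene ID 100101551). It had log2 values of 8.60, 8.61 and 8.74 in No Storage, 9.61, 9.79 and 8.91 in SCS, and 8.79, 8.83 and 9.25 in NEVKP. SCS replicates 1 and 2 lay far above the rest. The COL6A3 difference was 0.78 in SCS (SE 0.22, limma adjusted p = 0.137) and 0.31 in NEVKP (SE 0.22, limma adjusted p = 0.709). Its other 2 probe sets gave 0.91 and 0.93 in SCS and 0.52 and 0.38 in NEVKP. COL12A1 and COL16A1, which also associate with fibrils, differed in SCS by 0.53 (SE 0.21, limma adjusted p = 0.252) and 0.54 (SE 0.23, limma adjusted p = 0.296).

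COL8A1 encodes a network collagen of vessel walls and mesangium (NCBI Gene ID 397430). Its log2 values were 6.54, 5.89 and 6.67 in No Storage, 6.78, 7.54 and 6.81 in SCS, and 6.78, 7.56 and 6.93 in NEVKP. Both stored groups lay above No Storage, and replicate 2 was the highest of each. The difference was 0.68 in SCS (SE 0.28, limma adjusted p = 0.287) and 0.72 in NEVKP (SE 0.28, limma adjusted p = 0.511). The SCS difference of COL8A1 was 0.44 without No Storage replicate 2 and 0.43 without SCS replicate 2. A second, dim probe set of COL8A1 gave 1.09 in SCS (SE 0.31, limma adjusted p = 0.142) and 1.41 in NEVKP (SE 0.31, limma adjusted p = 0.342), which is over 1.5 times as much in each. COL6A5, a chain related to COL6A3, was the 1 collagen that was lower in SCS at an unadjusted p under 0.05. It had 4.66, 4.76 and 4.76 in No Storage, 4.29, 4.28 and 4.13 in SCS, and 4.60, 4.06 and 4.48 in NEVKP, with a difference of -0.49 in SCS (SE 0.15, limma adjusted p = 0.16). Its signal was low in all arrays. COL7A1, of the anchoring fibrils of epithelia, COL8A2, COL9A1, COL10A1, COL19A1, COL21A1 and COL23A1 had limma adjusted p of 0.512 or more in SCS and differed by -0.37 (COL21A1) to 0.46 (COL7A1). COL7A1 was at 6.31 in SCS replicate 2 and at 5.27 and 5.21 in the other SCS kidneys.

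Across the whole group, 11 of 30 collagens had SCS kidneys that all lay above all No Storage kidneys, and 1 had them all below. The same held for 11.7% and 13.3% of all genes. The median difference in SCS was 0.23 for fibrillar, -0.04 for basement membrane and 0.21 for other collagens, beside 0.0002 over all genes. With each array centred on its median, 18 in place of 20 of 30 collagens had a positive difference. The median over all genes then moved to -0.0468. At an unadjusted p under 0.05, 12 collagens still lay higher, beside 6.05% of all genes. For the basement membrane class the median hides the split between COL4A1 and COL4A2 on one side and COL4A3, COL4A5 and COL4A6 on the other. The members also split by brightness, a division made after seeing the data. Of the 15 collagens above the median level of all probe sets, 14 lay higher in SCS, 11 of them at an unadjusted p under 0.05, with a median of 0.62. Among all 7102 genes of that brightness 10.3% were higher by this rule. Of the 15 dimmer collagens 6 lay higher, 1 of them at an unadjusted p under 0.05 (COL5A1), with a median of -0.04, and COL6A5 was lower by that rule. Among dimmer genes 4.37% were higher and 3.99% lower. Brightness depends on the probes as well as on the transcript.

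**Figure D2:**
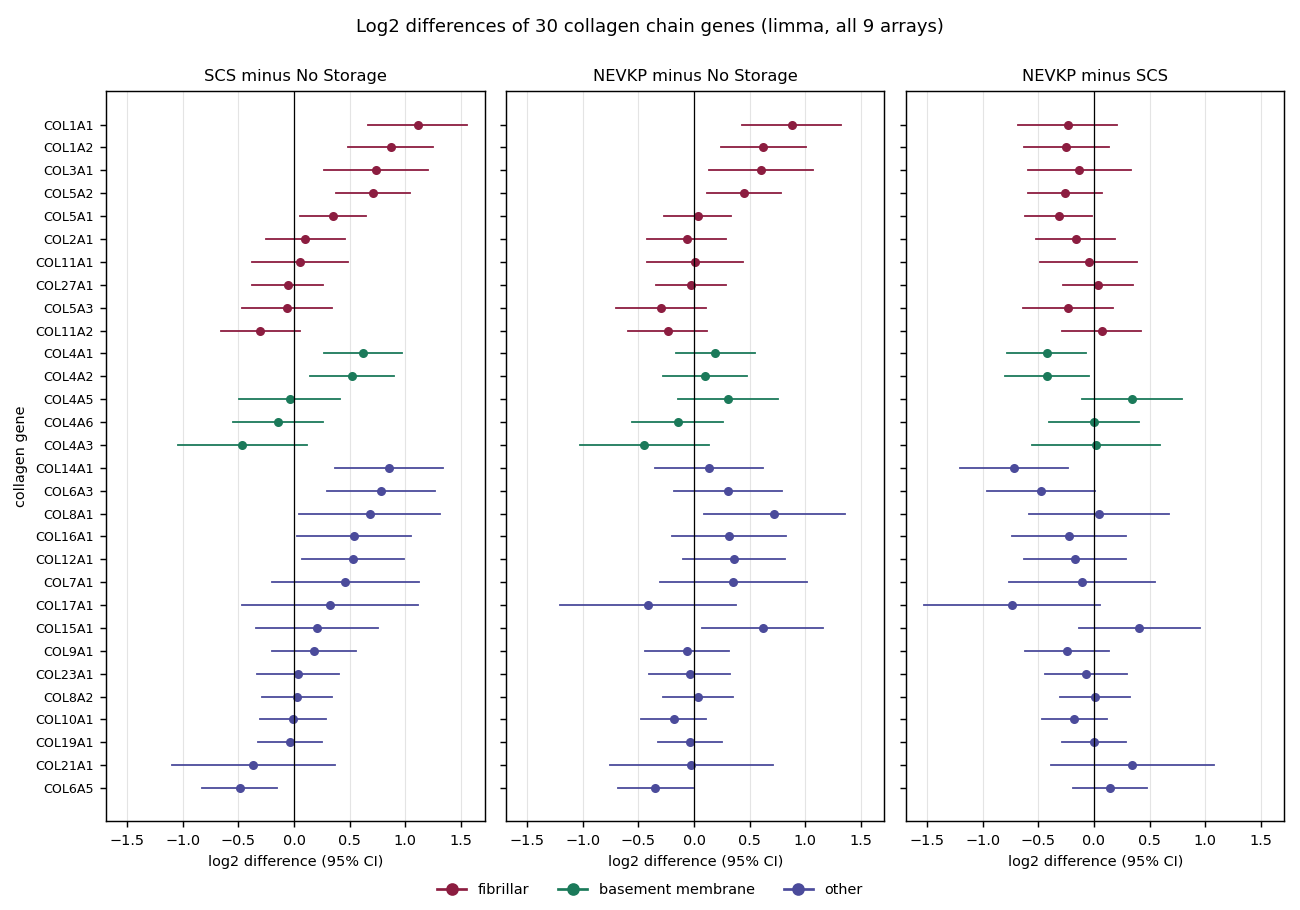
Log2 difference of each of the 30 collagen genes in the 3 comparisons, from limma on all 9 arrays. Points are estimates, lines are 95% confidence intervals before correction for multiple tests, and colours are the collagen classes. Of the intervals for SCS minus No Storage, 12 lie wholly above 0 and 1 below, against 6 and 1 for NEVKP minus No Storage, and 0 and 4 for NEVKP minus SCS. Over all genes, the intervals of 7.79% lie above 0 and of 9.05% below for SCS minus No Storage. These shares are 5.16% and 4.76% for NEVKP minus No Storage, and 4.42% and 3.29% for NEVKP minus SCS.

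The SCS calls of single collagens moved with the arrays used. Without SCS replicate 3, 4 of 30 collagens passed the adjusted threshold in limma, and the count over the whole array was 147 in place of 31 probe sets. These collagens were COL1A1 (1.30, adjusted p = 0.0332), COL1A2 (1.00, adjusted p = 0.0493), COL5A2 (0.86, adjusted p = 0.036) and COL6A3 (1.05, adjusted p = 0.0412). Without NEVKP replicate 2, which enters the shared estimate of spread, COL1A2 alone passed (limma adjusted p = 0.0483), and the whole array held 158. Over all 17 alternatives the limma adjusted p ran from 0.0332 to 0.203 for COL1A1, from 0.0483 to 0.226 for COL1A2, from 0.036 to 0.278 for COL5A2 and from 0.0412 to 0.316 for COL6A3. The SCS differences themselves ranged from 0.89 to 1.30, 0.74 to 1.00, 0.57 to 0.86 and 0.61 to 1.05. SCS replicate 2 held the highest value of all 9 arrays for 12 of the 30 collagens, a share that was not computed over all genes. This array also had the highest median, 5.797, and the lowest weight, 0.46, in the fit with array weights. Without it, 8 lay higher at an unadjusted p under 0.05 in place of 12, beside 6.59% in place of 7.79% of all genes.

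The second comparison asks the same of kidneys perfused warm, against the same No Storage arrays. The type I, III and V chains COL1A1, COL1A2, COL3A1 and COL5A2 were again on the higher side, joined by COL8A1 and COL15A1. Of 30 collagens, 0 passed the adjusted threshold in limma, as did 0% of all probe sets. At an unadjusted p under 0.05, 6 lay higher and 1 lower (COL6A5, -0.35, SE 0.15, limma adjusted p = 0.537), beside 5.16% and 4.76% of all genes. Among the probe sets used, the smallest limma adjusted p of a collagen was 0.343, for COL1A1. The second, dim probe set of COL8A1 had 0.342. COL4A1, COL4A2, COL14A1 and COL6A3, all higher in SCS at an unadjusted p under 0.05, did not reach it here by the probe sets used. For COL4A1 and COL6A3 all NEVKP kidneys still lay above all No Storage kidneys. Another probe set of COL6A3 gave 0.52 (SE 0.21, limma adjusted p = 0.528). This adjusted p is below that of COL6A5, so the probe set did reach the unadjusted level. The remaining probe set of COL6A3 gave 0.38 (SE 0.23, limma adjusted p = 0.662).

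COL15A1 encodes a collagen that lies between basement membranes and the interstitium (NCBI Gene ID 100512644). Its log2 values were 9.34, 8.64 and 8.83 in No Storage, 9.00, 9.48 and 8.94 in SCS, and 9.23, 10.0004 and 9.43 in NEVKP. NEVKP replicate 2 was the highest array, and No Storage replicate 1 overlapped the NEVKP range. The NEVKP difference was 0.62 (SE 0.25, limma adjusted p = 0.515), or 0.39 without NEVKP replicate 2, and the SCS difference was 0.21 (SE 0.25, limma adjusted p = 0.752).

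For 7 of 30 collagens all NEVKP kidneys lay above all No Storage kidneys, and for 3 they lay below, beside 8.74% and 9.31% of all genes. The median difference was 0.02 for fibrillar, 0.10 for basement membrane and 0.04 for other collagens, beside -0.007 over all genes. With each array centred on its median, the fibrillar and other medians turned to -0.035 and -0.02, and 14 in place of 17 of 30 collagens had a positive difference. Centring moved the median over all genes from -0.007 to -0.062 as well, so these signs turned with a shift common to all genes. Of the 15 brighter collagens 14 lay higher in NEVKP, with a median of 0.31, and of the 15 dimmer ones 3 did, with a median of -0.06. The count of 6 higher collagens was 3 without No Storage replicate 2 or without NEVKP replicate 2, and 9 without NEVKP replicate 1. The share of all genes moved the same way, from 5.16% to 3.75%, 3.46% and 6.61%.

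**Figure D3:**
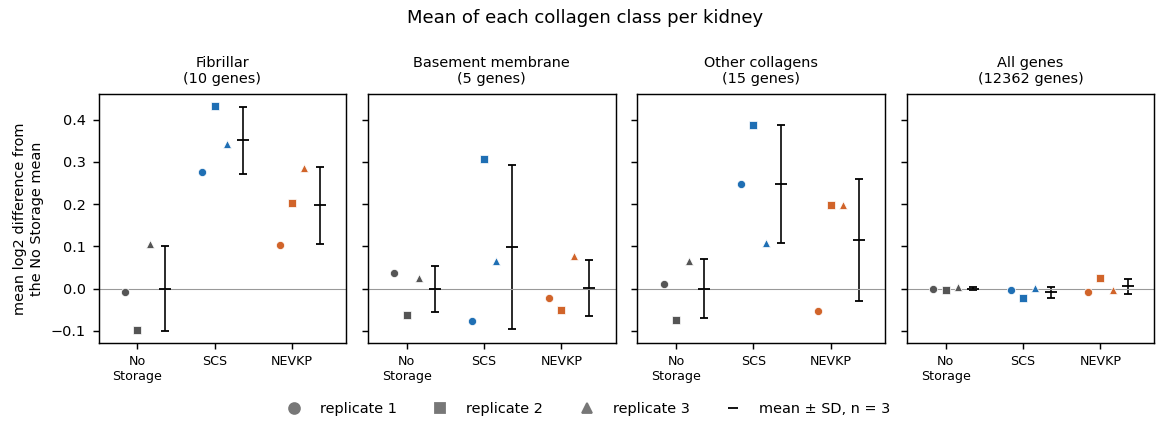
Mean over the genes of a collagen class of each kidney's log2 difference from the No Storage mean, with all genes at the right. Points are kidneys and bars the mean ± SD (n = 3). Fibrillar means were 0.28 to 0.43 in SCS and 0.10 to 0.29 in NEVKP, and in the basement membrane class SCS replicate 2 lay apart at 0.31.

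The mean over the fibrillar genes lay 0.35 ± 0.08 (SD, n = 3) above the No Storage mean in SCS and 0.20 ± 0.09 in NEVKP, while single No Storage kidneys lay at -0.10 to 0.10. For the basement membrane class the means were 0.10 ± 0.19 in SCS and 0.0014 ± 0.07 in NEVKP. For other collagens they were 0.25 ± 0.14 and 0.12 ± 0.15. The mean over all genes stayed between -0.02 and 0.03 on all arrays. These class means are descriptions and were not tested.

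The third comparison sets warm perfusion against cold storage. COL14A1, COL4A1, COL4A2 and COL5A1 lay lower in NEVKP than in SCS at an unadjusted p under 0.05, and no collagen lay higher by that rule when all arrays were used. In limma 0 of 30 collagens and 0% of all probe sets passed the adjusted threshold. The 4 lower and 0 higher collagens stand beside 3.29% lower and 4.42% higher over all genes. For COL14A1 the difference was -0.72 (SE 0.22, 95% interval -1.20 to -0.23, limma adjusted p = 0.587), and the groups did not overlap. For COL4A1 it was -0.43 (SE 0.16, interval -0.78 to -0.07, limma adjusted p = 0.637), and for COL4A2 -0.42 (SE 0.17, interval -0.80 to -0.04, limma adjusted p = 0.648), again without overlap. Both were smaller without SCS replicate 2, at -0.25 for COL4A1 and -0.23 for COL4A2. COL5A1 differed by -0.32 (SE 0.13, limma adjusted p = 0.648), with overlap. Groups that did not overlap, with NEVKP lower, were found for these 3 of 30 collagens and for 6.56% of all genes, and with NEVKP higher for 0 of 30 and 5.83%.

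COL6A3 followed with -0.48 (SE 0.22, limma adjusted p = 0.668), or -0.30 without SCS replicate 2 and -0.74 without SCS replicate 3, and COL17A1 with -0.74 (SE 0.36, limma adjusted p = 0.688). COL17A1 is a transmembrane collagen of epithelia that rest on a basement membrane. It had log2 values of 6.08, 6.58 and 5.30 in No Storage, 6.95, 5.66 and 6.31 in SCS, and 5.68, 5.31 and 5.72 in NEVKP. No Storage alone spanned more than the distance between the other group means, and without SCS replicate 1 the difference between NEVKP and SCS was -0.42. For the type I and III chains the groups overlapped, with differences of -0.23 for COL1A1 (interval -0.68 to 0.21), -0.25 for COL1A2 (-0.63 to 0.13) and -0.13 for COL3A1 (-0.60 to 0.34). These intervals allow a lower or a higher level in NEVKP. Without SCS replicate 2 the differences were -0.0074 for COL1A1 and -0.12 for COL1A2, and without SCS replicate 3 they were -0.42 for COL1A1 and -0.37 for COL1A2. COL15A1, COL4A5 and COL21A1 lay on the other side, with 0.41 (-0.14 to 0.96), 0.34 (-0.11 to 0.80) and 0.34 (-0.39 to 1.08), and without NEVKP replicate 2 those of COL15A1 and COL4A5 were 0.18 each.

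The medians of NEVKP minus SCS were -0.20 for fibrillar, -0.0013 for basement membrane and -0.11 for other collagens, beside -0.0045 over all genes, and 20 of 30 collagens had a negative difference. The count of 4 lower collagens was 2 without SCS replicate 2 or NEVKP replicate 1, and 1 without NEVKP replicate 2, where 2.86%, 3.46% and 3.12% of all genes were lower. It was 5 without SCS replicate 3, without NEVKP replicate 3 or with centred arrays, where 3.54%, 2.98% and 3.59% were lower. An F test among the 3 groups gave an unadjusted p under 0.05 for 11 of 30 collagens, 5 of them fibrillar, beside 13.9% of all genes. With adjustment 0 of 30 passed in limma, against 0.00523% of all probe sets, and COL1A1 had the smallest adjusted p, 0.138.

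Genes of the enzymes and chaperones that make collagen were read beside the chains. Over all genes, 7.79% were higher and 9.05% lower in SCS at an unadjusted p under 0.05, and 5.16% and 4.76% in NEVKP. In SCS 0 of 15 genes for folding and hydroxylation passed the adjusted threshold in limma, and 5 lay higher and 0 lower at an unadjusted p under 0.05, with a median of 0.26. SERPINH1, the collagen chaperone HSP47, differed by 0.84 (SE 0.19, limma adjusted p = 0.094) and FKBP10, a prolyl isomerase needed for collagen crosslinks, by 0.92 (SE 0.22, limma adjusted p = 0.106). In NEVKP 3 of the 15 lay higher by this rule, with FKBP10 at 0.73 and SERPINH1 at 0.58. Of 11 genes for propeptide cleavage and crosslinking, 0 passed in either comparison, and 4 in SCS and 1 in NEVKP lay higher at an unadjusted p under 0.05. LOXL4, a lysyl oxidase, differed by 0.93 in SCS (SE 0.18, limma adjusted p = 0.0646), by 0.22 in NEVKP and by -0.70 between NEVKP and SCS (SE 0.18, limma adjusted p = 0.52). BMP1, the protease that trims fibrillar procollagens, differed by 0.51 in SCS and 0.31 in NEVKP.

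Of 12 genes for collagen breakdown and its inhibitors, TIMP1 passed in SCS (1.62, SE 0.24, limma adjusted p = 0.048), as did 0.162% of all probe sets. At an unadjusted p under 0.05, 4 of the 12 lay higher, beside 7.79% of all genes. No probe set, TIMP1 included, passed without No Storage replicate 1, No Storage replicate 3 or SCS replicate 2. TIMP1 and TIMP2 inhibit matrix metalloproteinases, and the collagenase gene MMP2 differed by 0.50 (limma adjusted p = 0.193). All 12 had a positive difference in SCS and in NEVKP, where the medians over all genes were 0.0002 and -0.007. Of 7 collagen receptor genes, 0 had an unadjusted p under 0.05 in limma in any comparison. Of 16 genes that regulate collagen transcription, 0 passed. In SCS 3 lay higher and 1 lower at an unadjusted p under 0.05, beside 7.79% and 9.05% of all genes. CREB3L1, a transcription factor that activates type I collagen genes, differed by 0.83 in SCS (SE 0.15, limma adjusted p = 0.0568), and TGFB1, the main profibrotic cytokine, by 0.59 in SCS and 0.61 in NEVKP. In SCS CTGF differed by 0.70, and NFYC, the lower gene, by -0.30. Of 7 further genes of the basement membrane, 4 lay higher in SCS at an unadjusted p under 0.05, among them HSPG2, which encodes perlecan (0.81), and LAMA4, a laminin chain (0.58). In NEVKP 1 did, LAMA4 (0.57), and over all genes 7.79% did in SCS and 5.16% in NEVKP. 0 of the 7 passed in limma.

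**Figure D4:**
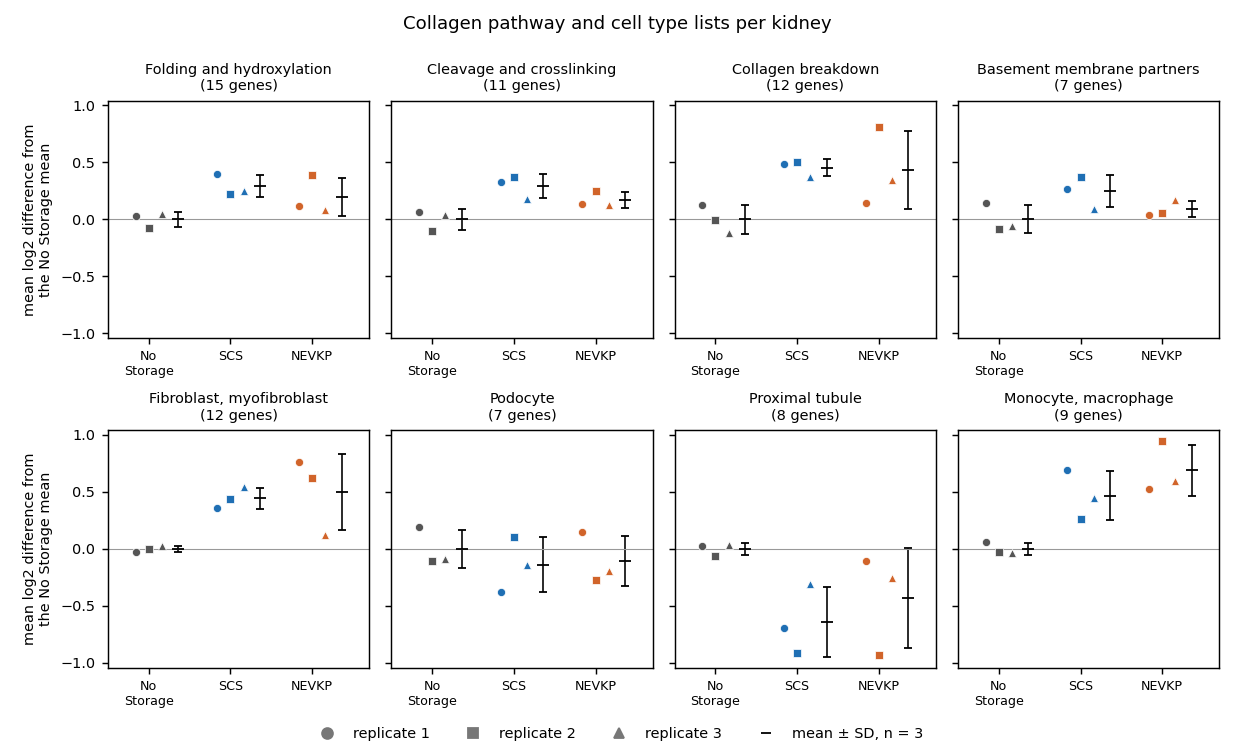
Mean over the genes of each list of a kidney's log2 difference from the No Storage mean, for 4 lists of the collagen pathway and 4 lists of cell type markers. Points are kidneys and bars the mean ± SD (n = 3). All SCS kidneys lie above No Storage for fibroblast and macrophage markers and below it for proximal tubule markers.

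Levels of cell type markers were read beside the collagens. List means of fibroblast, smooth muscle, macrophage and epithelial injury markers were higher in every stored kidney than in every No Storage kidney, and those of proximal tubule markers were lower. Of 8 proximal tubule markers 7 had a negative difference in SCS, and SLC34A1 went the other way by 1.02 (SE 0.34, limma adjusted p = 0.193). The SLC34A1 signal was low, with means of 4.43 in No Storage and 5.45 in SCS, below the array medians. For podocyte, endothelial and fat and muscle markers both stored groups overlapped No Storage, and for cartilage markers NEVKP did. The cartilage list holds SOX9 (1.13 in SCS), which is also on the epithelial injury list. Its median difference in SCS was 0.04, with 5 genes positive and 3 negative, among them IBSP (-0.32). Endothelial genes went both ways at an unadjusted p under 0.05: ENG (0.58) and TEK (-0.67) in SCS, ENG (0.53) and FLT1 (-0.72) in NEVKP. No gene of these lists passed the adjusted threshold in limma. At an unadjusted p under 0.05, 6 of 9 epithelial injury, 4 of 9 macrophage and 4 of 12 fibroblast markers lay higher in SCS. Of 8 proximal tubule markers, 4 lay lower and 1 higher in SCS. In NEVKP 7 of 9 macrophage, 4 of 12 fibroblast and 3 of 9 epithelial injury markers lay higher, and 2 of 8 proximal tubule markers lower. Over all genes 7.79% were higher and 9.05% lower in SCS, and 5.16% and 4.76% in NEVKP. For 12 of 15 listed fibroblast and myofibroblast markers that were measured, none of them dim, the mean level on single arrays was 7.62 to 7.67 in No Storage, 8.00 to 8.18 in SCS and 7.76 to 8.40 in NEVKP. In limma 0 of these 12 passed, and 4 lay higher in each stored group at an unadjusted p under 0.05. THY1 (0.64), ACTA2 (0.58), DCN (0.65) and PDGFRB (0.38) did so in SCS, and ACTA2 (0.66), TAGLN (0.75), DCN (0.73) and POSTN (1.07) in NEVKP. Of the 12 markers, 2 had a negative difference in SCS and 1 in NEVKP. The list mean lay higher by 0.45 ± 0.09 in SCS and by 0.50 ± 0.34 in NEVKP, where replicate 3 was at 0.12. Among the NEVKP kidneys, replicate 1 had the highest fibroblast mean (0.76) and the lowest fibrillar collagen mean (0.10), and replicate 3 the reverse (0.12 and 0.29). Among the SCS kidneys, replicate 1 was lowest in both (0.36 and 0.28), replicate 2 had 0.44 and 0.43, and replicate 3 had 0.54 and 0.34.

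Levels of 9 of 11 monocyte and macrophage markers averaged 6.54 to 6.64 in No Storage, 6.84 to 7.26 in SCS and 7.10 to 7.52 in NEVKP. Those of 8 of 11 proximal tubule markers averaged 10.65 to 10.74, 9.80 to 10.40 and 9.78 to 10.60, and those of 6 of 12 endothelial markers 8.25 to 8.46, 8.05 to 8.50 and 7.83 to 8.48. Markers of 5 of 9 listed smooth muscle and pericyte genes, 1 of them dim, averaged 5.93 to 6.03, 6.13 to 6.38 and 6.19 to 6.91. For epithelial injury markers, 9 of 9 with 1 dim, the ranges were 8.60 to 8.77, 9.14 to 9.55 and 8.86 to 9.47. Cartilage and bone markers, 8 of 9 with 3 dim, averaged 4.36 to 4.43, 4.45 to 4.57 and 4.28 to 4.53, and fat and skeletal muscle markers, 5 of 10 with 1 dim, 4.16 to 4.35, 3.99 to 4.36 and 4.09 to 4.30. The part of each of these cell types in the collagen values was not tested.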

How the data were processed

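Per the submitters' processing notes, the authors obtained deposited log2 intensities per probe set with RMA (background correction, normalization between arrays, summary over probes), and limma 3.34.14 is also named. No source used here states the chip definition or a filter. By the array's annotation 13323 probe sets had 1 distinct symbol, 357 had several and 5444 had none. For 26 of 30 members RefSeq Sscrofa11.1, used for gene order, has that symbol under their gene ID.

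limma 3.58.1 (R 4.3.3; lmFit, contrasts.fit, eBayes) was run on every probe set of the 9 arrays, each a different animal, with a mean per group. Residual degrees of freedom were 6, with 4.12 more from the prior. No low values were filtered out, and no batch is named in the labels. The steps were tested on simulated data. Members and lists were chosen with earlier results of these data known. Values in every kidney are given for the 6 collagens of smallest unadjusted p in each comparison and for types I, III and IV. Genes of each other list are named from the 4 of smallest p in a comparison, and some of those 4 are not named. COL6A5, COL7A1, COL12A1, COL16A1 and COL21A1 were named after their values were seen. In 17 alternatives the replicate number was a block, the prior trended and robust, arrays weighted, the dimmest 25% left out, arrays centred, a gene's probe sets averaged, only the compared groups fitted, or arrays left out. The number of arrays limits the precision.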

Additional observations from a re-analysis of the deposited data

How the results depend on the processing

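Over 17 alternatives, of which leaving out both SCS replicate 2 and NEVKP replicate 2 was chosen after seeing the data, the count of collagens past the adjusted threshold in limma stayed at 0 for NEVKP against either group. For SCS against No Storage it was 1 with a trended and robust prior, 1 with array weights and 1 without the dimmest 25% (COL1A1 each time), and 0 to 4 when single arrays were left out. Over the whole array, where 31 probe sets passed for SCS, it was 83, 93 and 82 under those settings, 49 with centred arrays, 48 with averaged probe sets, 0 without both arrays, and 0 to 158 without single arrays. The highest counts were 147 without SCS replicate 3 and 158 without NEVKP replicate 2, and the other 7 arrays left out in turn gave 0 to 2. For NEVKP against SCS it was 1 in place of 0 with array weights, and 0 to 1 without single arrays. The fibrillar median in SCS was 0.35 without the dimmest 25%, which leaves out COL11A1. Without single arrays the median of other collagens ran from 0.06 to 0.37 in SCS and from 0.0054 to 0.2523 in NEVKP. The basement membrane median between NEVKP and SCS ran from -0.1735 to 0.0643 and was -0.1678 without both arrays. Leaving out the dimmest probe sets or averaging those of a gene also lowers the number tested. The cause of the other shifts was not tested.

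Of 765 values of 15 collagens under an alternative, 735 kept direction and side of the threshold, 8 newly passed and 22 changed sign. None of these differences had passed in the main fit, so a sign change could only concern one that had not passed. COL14A1 in NEVKP against No Storage turned to -0.0192 without both arrays, and COL5A1 in that comparison to -0.0225 with centred arrays, which moved the median over all genes from -0.007 to -0.062. Without single arrays these 2 ranged from -0.0192 to 0.302 and from -0.0361 to 0.1034. COL17A1 in SCS ranged from -0.0199 to 0.6458, COL4A5 in SCS from -0.1598 to 0.0912, COL4A6 in SCS from -0.3224 to 0.0242 and in NEVKP from -0.3237 to 0.0229. Between NEVKP and SCS, COL3A1 ranged from -0.3279 to 0.0456, COL4A3 from -0.1735 to 0.3214, COL4A6 from -0.0986 to 0.0643 and COL8A1 from -0.1902 to 0.2931.

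Same-numbered arrays of different groups had deviations that correlated at -0.139 to 0.131, over 0.1 for 1 of 9 pairs, and 0 of 9 arrays correlated best with their own number in both other groups. With the replicate block the count of collagens past the threshold was 0 in each comparison. Among the probe sets used, the smallest adjusted p of a collagen in SCS was then 0.0789 in limma.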
